A study of Homo sapiens and Mus musculus with 69 samples.

Results

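The comparison described here is COR-L88 cells in DMSO with *STING1* knocked out (KO) against the same line with *STING1* intact. It rests on 6 libraries, 3 per group, of the 60 human libraries in the series of 69 samples, and all 20516 genes of the human table were considered. COR-L88 is a small cell lung cancer line of the neuroendocrine kind that grows in suspension. All 6 cultures were treated with DMSO, the solvent control of the LSD1 inhibitor TAS1440, and cells were collected after 28 days. The KO was made with CRISPR-Cas9 (Cas9 delivered by lentivirus, 1 guide RNA), and the KO cells of the study were grown out as single-cell clones. Which clone or clones were sequenced, and whether the intact cells carried Cas9 or a control guide, is not given in the sources used here. The effect of losing *STING1* and the difference between a clone and its parental culture therefore cannot be told apart. For side-by-side values, 2 further comparisons were used: COR-L88 kept for 28 days in 100 nM TAS1440, KO against intact (3 libraries each, no library shared), and H82, a small cell lung cancer line with a doxycycline-inducible *NOTCH1* construct, without doxycycline, KO against intact (3 each). The label numbers of the libraries are 10, 11 and 12 (intact) and 40, 41 and 42 (KO), and values are given in that order. Nothing in the labels says that the libraries of a group came from separate cultures, so that the *P* values measure the spread between these libraries, which may be technical.

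STING, encoded by *STING1*, is an adaptor in the membrane of the endoplasmic reticulum. It binds cGAMP, the second messenger that cGAS makes on meeting DNA in the cytosol, then travels to the Golgi and recruits the kinase TBK1, which phosphorylates IRF3. The outputs are type I interferon, interferon-stimulated genes, NF-kB targets and the class I antigen presentation machinery. Small cell lung cancers of the neuroendocrine type are known for low levels of this pathway and of class I genes, and LSD1, a histone demethylase that keeps neuroendocrine cells in their state, is one of the regulators studied for it.

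All levels below are log2(RPKM + 1), a scale on which the value is set per transcript length and per library size, and all fold changes are differences of group means on that scale (KO minus intact). Genes with a level of at least 1 in at least 3 of the COR-L88 libraries were tested, 13134 in all, with limma over all 15 COR-L88 libraries. Besides the groups named above, the 15 include 3 libraries of cells given TAS1440 and a gamma-secretase inhibitor. These 3 share in the filter and in the estimate of the spread. A gene could thus be tested through its level in TAS1440 alone, and a gene near 0 in DMSO cannot fall there. A gene was called when its Benjamini-Hochberg adjusted *P* was below 0.05 and its log2 fold change at least 1 in size. The 6 libraries held 15262 to 15964 genes above 0. Read totals are not in the table, but the value of 1 read differed by at most 1.46-fold between any 2 of the 6 libraries. Across genes, libraries of the intact group correlated at *r* = 0.986 to 0.991 and KO libraries at 0.979 to 0.993, while pairs of intact and KO libraries correlated at 0.969 to 0.981. KO library 41 was the one that stood furthest from its group: of the called genes it was the KO library nearest to the intact level at 102, library 40 at 51 and library 42 at 23. Neuroendocrine markers fixed for the line were expressed in all 6 libraries: the level of *SYP*, a synaptic vesicle protein, was 5.00, 4.80 and 5.03 in intact and 5.42, 5.02 and 5.55 in KO cells, and that of *CHGA*, a granule protein, 4.69, 4.60 and 4.84 against 3.97, 4.05 and 4.41. Markers of other cell types were low. The summed fibroblast level was 1.23 to 1.78 in intact and 0.675 to 1.04 in KO cells, with *DCN*, *LUM* and *PDGFRB* listed at 0 in all 6 libraries. Leukocyte markers summed to 1.87 to 2.46 and 1.95 to 3.11, with *CD3E* at 0. Endothelial markers summed to 0.619 to 0.739 and 0.517 to 1.18, and squamous markers to 0.0331 to 0.0882 and 0.0319 to 0.181, with *KRT5* and *KRT14* at 0.

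In DMSO the KO cells differed from intact cells in 193 of the 13134 genes tested (1.47%). Of these, 133 were lower in the KO cells (1.01%) and 60 were higher (0.457%). Fewer cells of a kind and less RNA per cell cannot be told apart in such bulk libraries. The falls were deeper than the rises: the median size of the log2 fold change was 1.54 among lower and 1.26 among higher genes, 38 genes fell by at least 2 against 5 that rose by as much, and 13 against 0 moved by at least 3. Levels of the 2 groups did not overlap at 131 of the 133 lower and at all 60 higher genes, beside 3481 of all genes tested (26.5%). The median log2 fold change of all genes tested was -0.03, and 2938 genes had an unadjusted *P* below 0.05 with limma. Without KO library 42 the count fell to 119 genes, and without KO library 41 it rose to 267.

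**Figure D1:**
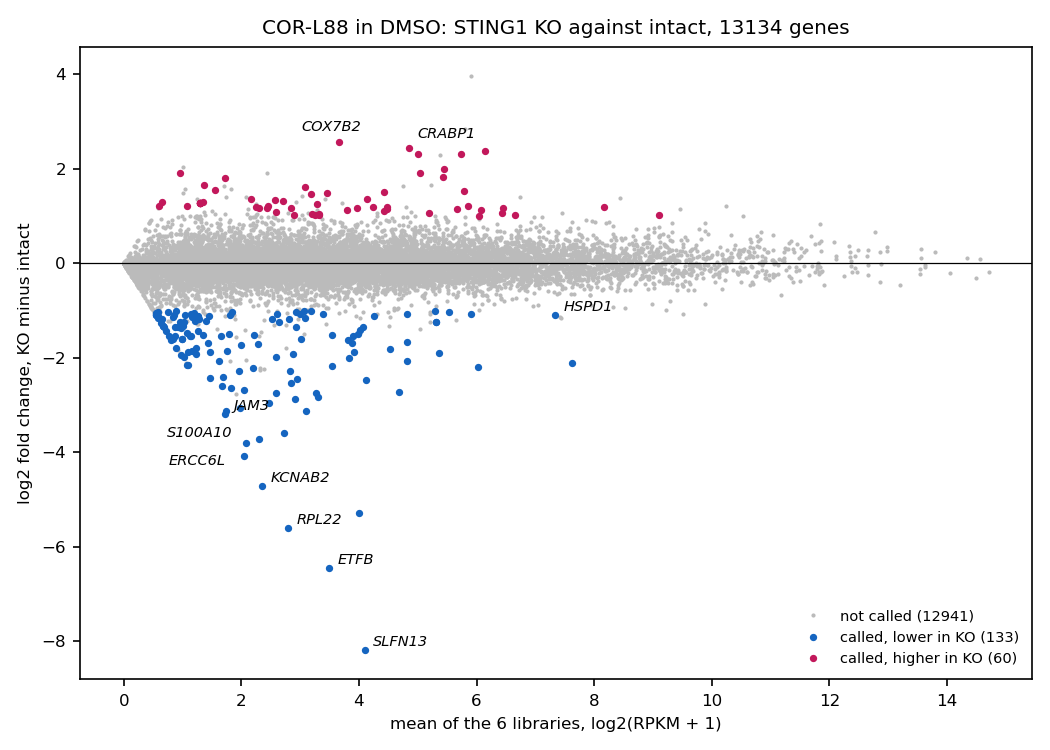
Log2 fold change (KO minus intact, vertical axis) against the mean log2(RPKM + 1) of the 6 DMSO libraries (horizontal axis), 1 point per gene tested. The 133 genes called lower are blue and the 60 called higher are magenta. The falls reach -8.19 at *SLFN13*, while no called gene rises by more than 2.57 (*COX7B2*).

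The mRNA of the targeted gene does not check the KO in these libraries, because it was close to 0 in both groups. *STING1* (GRCh37 chr5:138855118-138862520, minus strand, listed as *TMEM173*) had levels of 0.24, 0.41 and 0.20 in intact and 0.12, 0.36 and 0.10 in KO cells. The groups overlapped, and the log2 fold change of -0.09 (SE 0.14, 95% interval -0.39 to 0.21, adjusted *P* = 0.755) did not pass the test. In TAS1440 its level was 2.54, 2.04 and 2.03 in intact and 1.16, 1.09 and 0.96 in KO cells (log2 fold change -1.13, adjusted *P* = 0.00013). There the groups were apart, and the KO effect differed between TAS1440 and DMSO by -1.04 (adjusted *P* = 0.0091, limma interaction). Around the gene, 26 genes of the table lie within 1 Mb, 15 were tested and 0 were called (4 with an unadjusted limma *P* below 0.05). Their median log2 fold change was 0.06, from -0.43 (*HSPA9*, a mitochondrial chaperone) to 0.74 (*CYSTM1*).

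No gene of the STING pathway was called in DMSO, in either direction. Of 14 sensors, adaptors and kinases tested, 0 were called by limma (2 at an unadjusted *P* below 0.05) and the median log2 fold change was 0.01, beside -0.03 for all genes. The DNA sensor *CGAS* (listed as *MB21D1*) had levels of 3.26, 3.11 and 3.18 in intact and 2.97, 2.48 and 2.82 in KO cells. Every KO value was below every intact value, but the log2 fold change of -0.43 (95% interval -0.74 to -0.11) had an adjusted *P* of 0.105. *TBK1*, the kinase that STING recruits, had levels of 3.92, 3.63 and 3.42 against 3.34, 3.22 and 3.36 (log2 fold change -0.35, adjusted *P* = 0.0928). *IRF3*, the transcription factor it phosphorylates, had levels of 3.42, 3.19 and 3.26 against 2.89, 3.16 and 3.13 (log2 fold change -0.23, adjusted *P* = 0.234).
Both sets of levels were apart by little, and neither gene passed. The 22 trafficking and regulatory genes tested had 0 calls (2 at an unadjusted limma *P* below 0.05) and a median of 0.00. In TAS1440, 4 of the 14 pathway genes were called lower (background 5.06% of all genes lower) and the KO effect was called lower than in DMSO for 4 (background 3.31%). Both counts are a description, because genes could pass the filter through their TAS1440 level alone.

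The interferon outputs gave no call either. Of 16 interferon, receptor and JAK pathway genes tested, 0 were called by limma (1 at an unadjusted *P* below 0.05), with a median log2 fold change of -0.02. Of 42 interferon-stimulated genes tested, 0 were called by limma (1 at an unadjusted *P* below 0.05) and the median was -0.01. *ISG15*, a ubiquitin-like modifier, had levels of 3.74, 2.96 and 3.23 against 2.62, 3.00 and 3.23, overlapping (log2 fold change -0.36, adjusted *P* = 0.405). Many genes of this kind had no measurable level to lose: *IFNB1*, *CCL5*, *CXCL9*, *OAS1*, *IFI44L*, *IFI16* and *XAF1* were listed at 0 in all 6 DMSO libraries. *XAF1*, an interferon-inducible gene that promotes apoptosis, had levels of 4.83, 5.37 and 5.44 in intact cells with TAS1440 and was listed at 0 in the 3 KO libraries with TAS1440. Its KO effect in TAS1440 minus that in DMSO was -5.21 (adjusted *P* = 4.6e-09, limma interaction). This value restates the TAS1440 difference, since all its DMSO levels were 0. Over the interferon-stimulated genes, 13 were called lower in TAS1440 (5.06% of all genes), and for 8 the KO effect was called lower there than in DMSO (3.31% of all genes). Members that passed the filter only through intact cells in TAS1440 could come out only lower there, so both counts are a description.

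Class I antigen presentation genes, which load and display peptides for T cells, were likewise not called in DMSO. By limma 0 of the 18 tested were called (5 at an unadjusted *P* below 0.05), and the median log2 fold change was -0.23. Of the 18, 14 had a value below 0, beside 7223 of all 13134 genes. *B2M*, the invariant light chain, had levels of 5.73, 4.62 and 4.96 in intact and 4.77, 4.70 and 4.89 in KO cells. The groups overlapped and the log2 fold change was -0.32 (95% interval -0.96 to 0.33). For *HLA-B*, a heavy chain, levels were 1.42, 0.69 and 1.14 against 0.16, 1.41 and 0.50, again overlapping (log2 fold change -0.39, 95% interval -1.59 to 0.81). *HLA-C* had higher levels, 6.09, 5.58 and 5.88 against 5.74, 5.81 and 5.74 (log2 fold change -0.09), and *TAP1*, a subunit of the peptide transporter, was at 0.41 or less in all 6. *PSMB9*, a subunit of the immunoproteasome, had levels of 1.43, 0.56 and 0.41 in intact cells and was listed at 0 in the KO libraries (log2 fold change -0.80, adjusted *P* = 0.386). In TAS1440, 9 of the 18 were called lower (5.06% of all genes), and 8 had a KO effect called lower than in DMSO (3.31% of all genes). As for the interferon-stimulated genes, these counts are a description. The difference of the KO effects was -3.79 for *HLA-B* (adjusted *P* = 0.014, limma interaction), -2.20 for *HLA-E* (0.011), -2.23 for *TAP1* (0.0019), -1.65 for *B2M* (0.031) and -1.47 for *HLA-C* (0.022). *TAP1*, at 0.41 or less in DMSO, had little level to lose there, so its value mostly restates the TAS1440 difference. The same holds for *HLA-B*, at 0.69 to 1.42 in intact cells in DMSO. Of the other lists of STING outputs, 20 NF-kB genes (median -0.07), 9 chemokine and cytokine genes (median -0.24) and 4 class II genes (median -0.15) had 0 calls by limma in DMSO, with 3, 2 and 0 genes at an unadjusted *P* below 0.05. *NFKB1*, which encodes the p105 and p50 subunits, had an adjusted *P* of 0.0267 with levels of 2.46, 2.23 and 2.25 against 1.87, 1.55 and 1.96, but its log2 fold change of -0.52 was under the size limit.

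**Figure D2:**
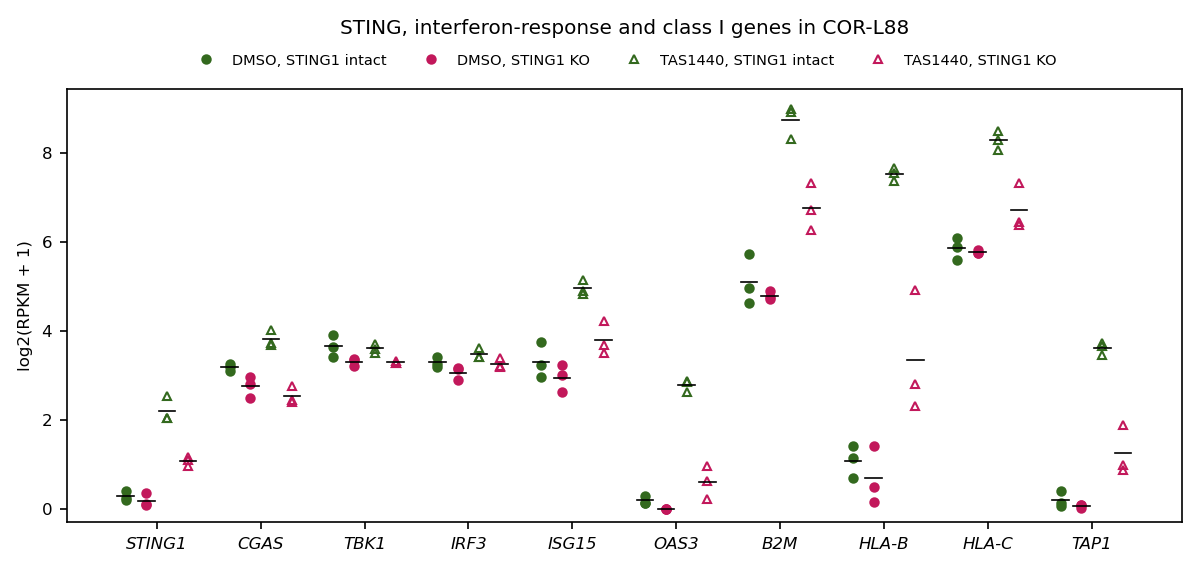
Levels, log2(RPKM + 1), of 10 STING, interferon-response and class I genes in each COR-L88 library. Filled circles are DMSO and open triangles TAS1440, green is intact and magenta KO, and the short line is the mean of 3 libraries. In DMSO the circles of both groups lie close together (*HLA-C* means differ by 0.09), while in TAS1440 the *HLA-B* triangles stand apart by 4.18.

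The deepest differences in DMSO were genes with a clear level in intact cells that were listed at 0 in KO cells. There were 14 genes with a level of at least 1 in all 3 intact libraries and 0 in all 3 KO libraries, against 1 gene (*PCK1*, a gluconeogenic enzyme) with the reverse pattern. These genes were selected by the pattern itself, so their levels are a description, and 2 of them, *KRT17* and *C6orf195*, did not pass the test (adjusted *P* = 0.236 and 0.111). The 14 were *SLFN13*, *RPL22*, *KCNAB2*, *ERCC6L*, *HSPB8*, *C6orf195*, *EFS*, *KRT17*, *C9orf142*, *DSC2*, *SLFN12*, *FGF13*, *TMPRSS6* and *LGSN*. Of them, 7 were also listed at 0 in all 3 KO libraries with TAS1440 and 9 were under 0.2 in all 3. Of the 14, 1 gene had a level of at least 2 in all 3 KO libraries with TAS1440, *HSPB8*, a small heat shock protein gene.

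*SLFN13* showed the largest difference of all genes tested. It encodes a Schlafen-family endonuclease that cleaves tRNA and rRNA, and it lies at GRCh37 chr17:33762115-33775856 (minus strand). Its levels were 8.21, 8.04 and 8.32 in intact cells and 0, 0 and 0 in KO cells. No KO library held a value for a gene that was among the well-expressed genes of every intact library (log2 fold change -8.19, SE 0.18, 95% interval -8.59 to -7.80, adjusted *P* = 9.18e-12). With TAS1440 the levels were 7.76, 7.32 and 8.30 against 0, 0 and 0 (log2 fold change -7.79, adjusted *P* = 1.8e-11). The neighbouring Schlafen genes went with it. *SLFN12* had levels of 1.28, 1.55 and 1.46 against 0, 0 and 0 (log2 fold change -1.43, SE 0.16, adjusted *P* = 0.000196), and *SLFN11*, known for sensitising cells to DNA-damaging drugs, had 0.33, 0.19 and 0.34 against 0, 0 and 0 (log2 fold change -0.29, adjusted *P* = 0.394). In TAS1440, where *SLFN11* was higher in intact cells at 0.90, 1.82 and 1.36, it was again listed at 0 in all KO libraries (log2 fold change -1.36, adjusted *P* = 0.00027). The 3 genes are consecutive over 98.5 kb (GRCh37 chr17:33677324-33775856), and all 3 were at 0 in all 6 KO libraries of COR-L88. On the *SLFN11* side the levels of both groups overlapped at the next gene, *SLFN5*, with 0.43, 0.30 and 0.35 against 0.36, 0.50 and 0.29. *SLFN12L* and *SLFN14*, beyond *SLFN13*, had no value in any of the 12 COR-L88 libraries of the 4 groups, so that the far end of the run is not fixed by these data. The neighbours in this and the next paragraph were chosen after the values were seen.

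A second run of consecutive genes at 0 lay on chromosome 1. Between *KCNAB2* and *GPR153* (GRCh37 chr1:6050987-6321158, 270.2 kb) the table holds 8 genes. Of these, 6 had a value in some library, and all 6 were listed at 0 in the 3 KO libraries in DMSO. *RPL22*, a protein of the large ribosomal subunit, had levels of 5.78, 5.52 and 5.50 in intact cells and 0, 0 and 0 in KO cells (log2 fold change -5.60, SE 0.35, adjusted *P* = 1.04e-06). *KCNAB2*, a beta subunit of voltage-gated potassium channels, had 5.09, 4.75 and 4.31 against 0, 0 and 0 (log2 fold change -4.72, SE 0.54, adjusted *P* = 0.000293). The G protein-coupled receptor gene *GPR153* had 1.20, 0.91 and 1.20 against 0, 0 and 0 (log2 fold change -1.10, SE 0.13, adjusted *P* = 0.000272). The intact and KO groups were apart at all 3. *ICMT*, which methylates prenylated proteins, was too low to be tested, with 0.62, 0.48 and 0.45 against 0, 0 and 0, and *CHD5* and *RNF207* were near 0 in both groups. At the flanking genes the groups overlapped. *NPHP4* had 1.68, 1.50 and 1.55 against 1.44, 1.27 and 1.63 (log2 fold change -0.13, adjusted *P* = 0.561), and *ACOT7* had 3.26, 2.67 and 2.79 against 2.83, 2.42 and 2.81 (log2 fold change -0.22, adjusted *P* = 0.548). With TAS1440, 5 of the 6 genes were at 0 in all KO libraries. The exception was *RPL22*, with levels of 2.85, 4.84 and 3.75 in intact and 1.22, 1.33 and 0.86 in KO cells, and its KO effect differed between TAS1440 and DMSO by 2.92 (adjusted *P* = 0.0053). Processed copies of ribosomal protein genes can share reads. Whether they did so for the low *RPL22* values in KO cells with TAS1440 was not tested, so these values are uncertain. Its paralog *RPL22L1* had levels of 5.64, 5.18 and 5.65 against 5.71, 4.57 and 5.62, overlapping (log2 fold change -0.20, 95% interval -0.82 to 0.43). Of the 28 ribosomal protein genes tested, *RPL22* was the 1 called (1.01% of all genes were called lower), and their median log2 fold change was -0.04.

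**Figure D3:**
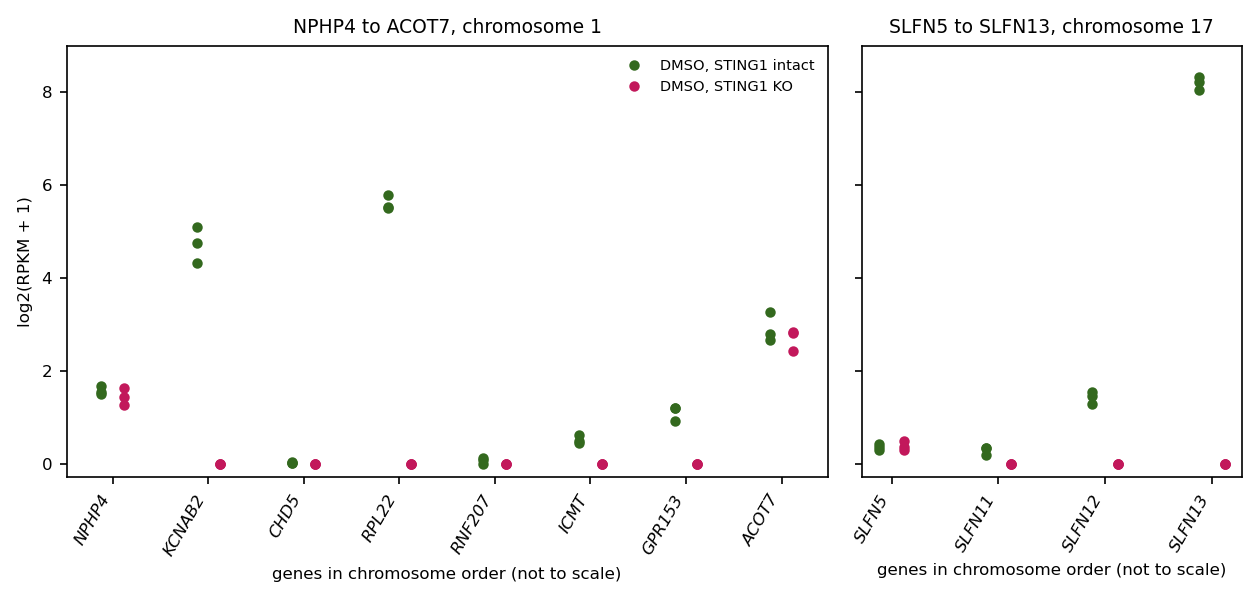
Levels, log2(RPKM + 1), of the genes with any value at the 2 runs, in chromosome order (not to scale), for the 3 intact (green) and 3 KO (magenta) DMSO libraries. Between *NPHP4* and *ACOT7* all 6 genes, and after *SLFN5* all 3 genes, lie at 0 in KO cells, while the flanking genes of both groups lie together.

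The start regions of 4 of the genes at 0 are shown because they differ in sequence type. Each is the 250 bases before the annotated start (RefSeq, GRCh38.p14; minus-strand genes, 5′ to 3′ along the gene), with every CG dinucleotide in capitals. *RPL22* is at chr1:6199596-6199845, *GPR153* at chr1:6261099-6261348, *SLFN12* at chr17:35433175-35433424 and *ERCC6L* at chrX:72239028-72239277.
RPL22: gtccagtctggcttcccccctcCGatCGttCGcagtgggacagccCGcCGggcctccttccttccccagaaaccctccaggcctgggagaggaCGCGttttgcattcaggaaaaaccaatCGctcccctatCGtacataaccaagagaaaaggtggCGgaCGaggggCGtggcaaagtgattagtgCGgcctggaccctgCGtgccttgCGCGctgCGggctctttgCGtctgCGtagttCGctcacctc
GPR153: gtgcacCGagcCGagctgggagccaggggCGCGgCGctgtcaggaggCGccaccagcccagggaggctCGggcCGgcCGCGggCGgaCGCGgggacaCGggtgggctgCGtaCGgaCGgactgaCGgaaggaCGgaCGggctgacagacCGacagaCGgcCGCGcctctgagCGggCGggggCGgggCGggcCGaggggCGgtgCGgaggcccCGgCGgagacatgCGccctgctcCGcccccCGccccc
SLFN12: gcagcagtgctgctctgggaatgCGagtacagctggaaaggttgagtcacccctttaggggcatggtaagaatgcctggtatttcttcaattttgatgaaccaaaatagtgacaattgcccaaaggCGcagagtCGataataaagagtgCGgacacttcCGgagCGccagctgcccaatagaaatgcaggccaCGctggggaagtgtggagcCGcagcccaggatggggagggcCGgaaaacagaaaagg
ERCC6L: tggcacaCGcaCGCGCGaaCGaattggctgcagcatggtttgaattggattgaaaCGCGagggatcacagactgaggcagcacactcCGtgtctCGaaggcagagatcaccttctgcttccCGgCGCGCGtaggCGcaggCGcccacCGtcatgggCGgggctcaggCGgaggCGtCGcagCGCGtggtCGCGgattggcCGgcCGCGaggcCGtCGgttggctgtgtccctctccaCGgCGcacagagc
The *GPR153* window holds 36 CG and the *ERCC6L* window 31, which 4.9% and 10.9% of the 35116 RefSeq windows of that length reach. The *RPL22* window holds 20 (reached by 32.4%) and the *SLFN12* window 9 (reached by 54.1%), beside a median of 11. The letters GGGCGG, searched on both strands and counted without overlaps, occur 6 times in the *GPR153* window and 1 time in that of *ERCC6L*. They do not occur in those of *RPL22* and *SLFN12*, and 42.6% of all windows hold them. The starts of these 4 genes thus ranged from a CG count near the median to a high one. DNA methylation and DNA copy number were not measured in these libraries, and their part in the zero values was not tested.

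Full or near full losses were also seen at other genes. For *ETFB*, *ERCC6L* and *JAM3* the neighbours were examined as well. *ETFB*, a subunit of the electron transfer flavoprotein of fatty acid oxidation, had levels of 6.54, 6.66 and 6.96 in intact and 0, 0.82 and 0 in KO cells. The groups were far apart (log2 fold change -6.45, SE 0.29, adjusted *P* = 2.62e-08), and the difference was smaller in TAS1440, with 7.16, 7.60 and 7.42 against 2.05, 3.29 and 2.25. Directly beside it lie *VSIG10L* and *CLDND2*, both too low to be tested. *VSIG10L* had levels of 0.33, 0.28 and 0.31 against 0, 0 and 0, and *CLDND2* had 0.15, 0.08 and 0.22 against 0, 0 and 0. *ZNF175*, the next gene with a value beyond *CLDND2*, had a log2 fold change of -0.31 that was not called. *ERCC6L*, a DNA helicase that works at centromeres in mitosis, had levels of 4.50, 3.93 and 3.83 against 0, 0 and 0 (log2 fold change -4.08, SE 0.30, adjusted *P* = 7.56e-06). Its neighbours *PIN4* and *RPS4X* had log2 fold changes of -0.20 and -0.17. *JAM3*, a junctional adhesion molecule, had levels of 3.20, 3.41 and 3.36 against 0.12, 0.07 and 0.20 (log2 fold change -3.19, SE 0.13, adjusted *P* = 1.56e-08), while *NCAPD3* beside it had -0.06. On its other side the low gene *IGSF9B* had levels of 0.36, 0.57 and 0.24 against 0, 0.03 and 0. *CEP41*, a ciliary and centrosomal protein, had 3.08, 3.18 and 3.15 against 0.63, 0.36 and 0.51 (log2 fold change -2.63, adjusted *P* = 6.89e-07). The histone variant gene *MACROH2A2* (listed as *H2AFY2*) had 1.98, 2.27 and 2.25 against 0, 0.04 and 0 (log2 fold change -2.15, adjusted *P* = 7.59e-07). *PAXX* (listed as *C9orf142*), a factor of non-homologous end joining, had 1.39, 1.74 and 2.25 against 0, 0 and 0 (log2 fold change -1.79, adjusted *P* = 0.000685). At these 6 genes no KO value reached the lowest intact value, and the 6 were also called lower in TAS1440.

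Among the 20 largest falls (by the rule on apart groups and an intact mean of at least 2) were the following genes. *S100A10*, a partner of annexin A2 that is counted here with mesenchymal genes, had levels of 4.20, 4.00 and 3.72 in intact and 0, 0 and 0.52 in KO cells (log2 fold change -3.80, SE 0.44, adjusted *P* = 0.000327). *NEDD9*, a scaffold of focal adhesions, had 4.42, 4.97 and 4.20 against 1.77, 0.50 and 0.52 (log2 fold change -3.60, adjusted *P* = 8.2e-05). Both were far below every intact library in each KO library. *NLRP1*, an inflammasome sensor, had 4.55, 4.70 and 4.75 against 1.21, 2.60 and 0.82 (log2 fold change -3.13, adjusted *P* = 0.000393), the KO library 41 being the highest. *INPP5D*, which encodes the lipid phosphatase SHIP1, had 4.54, 4.15 and 4.37 against 1.64, 1.68 and 1.10 (log2 fold change -2.88, adjusted *P* = 0.000194). The proton pump gene *ATP12A* (log2 fold change -3.07), the proteoglycan gene *GPC3* (-2.95), the transcriptional regulator *PRDM13* (-2.75), the sphingolipid synthesis gene *SPTSSB* (-2.74) and the receptor gene *GPRC5A* (-2.68) fell as well, with adjusted *P* from 6.24e-05 to 0.00136. In each of them the groups were apart.

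**Figure D4:**
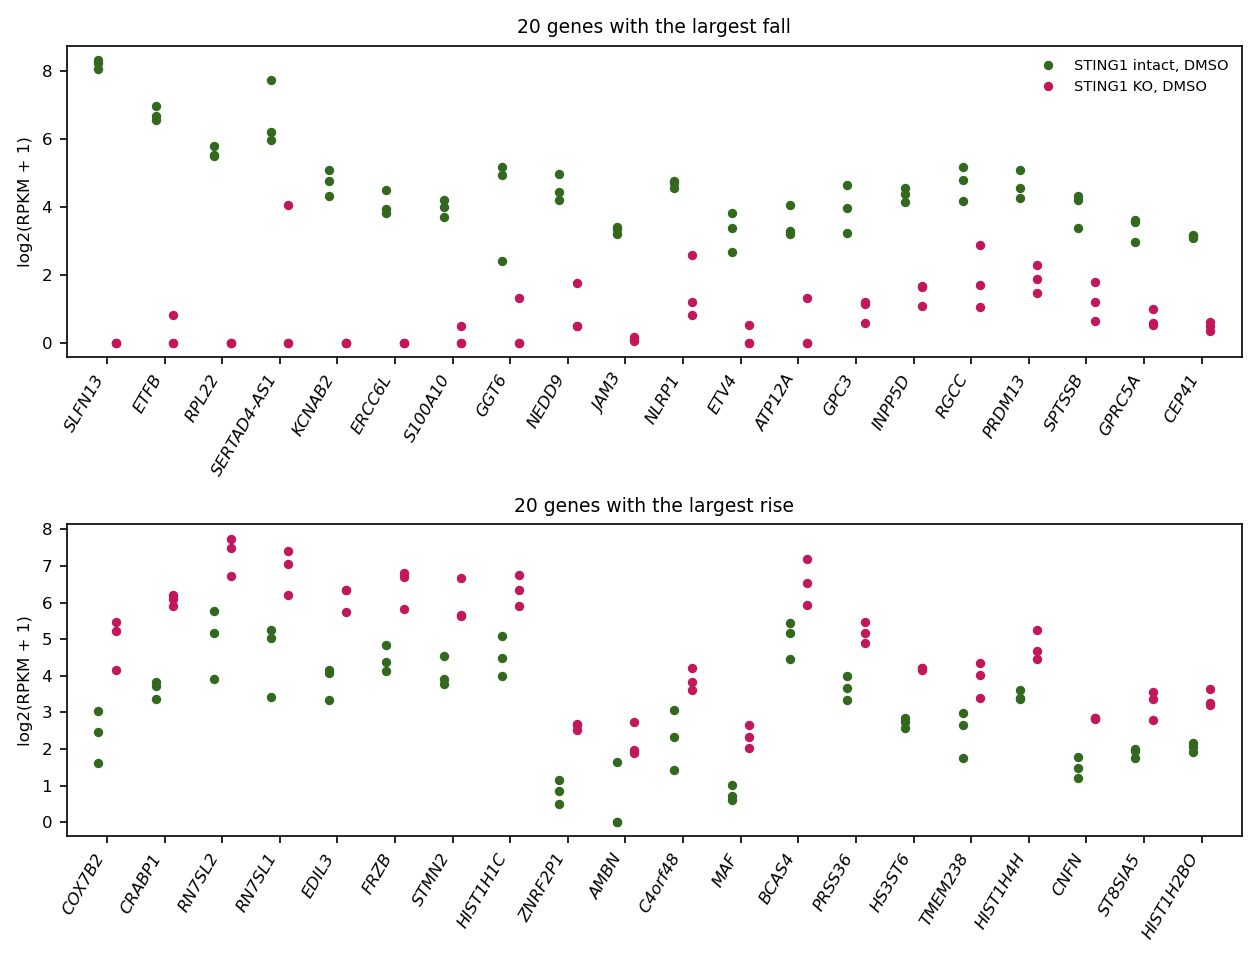
Levels, log2(RPKM + 1), in the 3 intact (green) and 3 KO (magenta) DMSO libraries for the 20 genes with the largest fall (top) and the 20 with the largest rise (bottom) among called genes whose groups do not overlap and whose higher group averages at least 2. *SLFN13*, *RPL22*, *KCNAB2* and *ERCC6L* lie at 0 in every KO library, whereas the rising genes mostly have a level in intact cells, such as 3.35 to 3.84 for *CRABP1*.

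Feedback genes of the ERK pathway were picked as a group after the values were seen, so their counts are a description. Of 9 tested, 4 were called lower in DMSO, where 1.01% of all genes were, and 5 were not called. The median log2 fold change was -0.86. *ETV4*, an ETS transcription factor induced by ERK signalling, had levels of 3.83, 3.38 and 2.69 against 0, 0.53 and 0 (log2 fold change -3.12, adjusted *P* = 0.00432). *SPRY1*, an inhibitor of receptor tyrosine kinase signalling, had 3.64, 3.90 and 3.93 against 2.46, 1.88 and 2.32 (log2 fold change -1.60, adjusted *P* = 0.00191). The groups were apart at both genes. *DUSP6*, a phosphatase of ERK, had 6.41, 4.95 and 5.59 against 4.30, 4.25 and 3.39 (log2 fold change -1.67, adjusted *P* = 0.0195), and *SPRY2* had a log2 fold change of -1.11 (adjusted *P* = 0.00393). The call of *DUSP6* rested on single libraries, with adjusted *P* = 0.0764 without intact library 10 and 0.0858 without KO library 42, and *SPRY2* fell by 0.96 without intact library 10, below the size limit. In TAS1440, 2 others of the 9 were called lower: *DUSP5* with levels of 2.55, 2.18 and 1.16 against 0.41, 0.91 and 0.19 (log2 fold change -1.46, adjusted *P* = 0.002) and *ETV5* with a log2 fold change of -1.12 (adjusted *P* = 0.021). The KO means of *SPRY1* and *DUSP6* were not below the intact means there. *SPRY1* had 5.53, 6.22 and 6.24 in intact and 6.11, 6.72 and 6.20 in KO cells, and *DUSP6* 6.92, 6.77 and 6.56 against 8.21, 7.57 and 7.31. The KO effect in TAS1440 minus that in DMSO was called higher for 4 of the 9 genes, by 2.87 for *ETV4*, 2.61 for *DUSP6*, 1.95 for *SPRY1* and 1.25 for *DUSP4*, another ERK phosphatase.

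Of the other lists, most had few calls or none. Of all genes tested, 1.01% were called lower and 0.457% higher, so 1 or 2 calls in a list are not read as a result about it. Mesenchymal genes (39 tested, median log2 fold change -0.18) had 2 lower, *S100A10* and *CCN1* (listed as *CYR61*), a secreted matrix protein induced by YAP. *CCN1* had levels of 4.03, 3.03 and 3.17 against 2.18, 2.32 and 2.17 (log2 fold change -1.19, adjusted *P* = 0.0209), with adjusted *P* of 0.0755, 0.0692 and 0.0791 without libraries 10, 40 and 42. *YAP1* itself had levels of 1.36, 1.00 and 0.86 against 0.06, 0.29 and 0, apart, with a log2 fold change of -0.96 (adjusted *P* = 0.00228) just under the size limit. Collagen, laminin and integrin genes (31 tested, median -0.25) had 1 lower, *COL2A1*, the collagen of cartilage (log2 fold change -2.08, adjusted *P* = 0.0201, and 0.0847, 0.077 and 0.0791 without libraries 10, 40 and 42). Among 46 cell cycle and *MYC* family genes the G1 kinase *CDK6* was the 1 called, with levels of 2.83, 2.60 and 1.86 against 0.56, 1.50 and 0.59 (log2 fold change -1.55, adjusted *P* = 0.0099, and 0.0516, 0.0515 and 0.0553 without libraries 10, 40 and 42). In the glycolysis and hypoxia list (31 tested, median -0.17) *VEGFA*, the vascular growth factor, was the 1 called. Its levels of 5.27, 6.21 and 6.67 against 2.45, 5.35 and 2.15 overlapped through KO library 41 (log2 fold change -2.73, adjusted *P* = 0.0267), and its adjusted *P* was 0.0845, 0.0785, 0.102 and 0.105 without libraries 11, 12, 40 and 42. WNT, TGF-beta and BMP genes (42 tested, median -0.14) had *SMAD6*, an inhibitor of BMP signalling, lower (log2 fold change -1.48, adjusted *P* = 0.00796) and *WNT11* higher (1.16, adjusted *P* = 0.00416, but 0.93 in size without library 42). Neither was called with limma fitted to the 2 compared groups alone (adjusted *P* = 0.069 and 0.0956). *FGF13*, an intracellular FGF homologue that binds sodium channels, was the 1 called of 32 growth factor and receptor genes, with levels of 1.40, 1.30 and 1.36 against 0, 0 and 0 (log2 fold change -1.35, adjusted *P* = 9.63e-06). No call was made by limma in 10 further lists. These were chromatin regulation by LSD1, CoREST, PRC2 and DNA methylation (25 tested, median -0.03, 4 genes at an unadjusted *P* below 0.05), cholesterol and fatty acid synthesis (31, -0.07, 2 genes) and the integrated stress response (29, -0.29, 1 gene). The median of the stress response rested on single libraries, with -0.89 without library 10, -0.69 without library 41 and 0.02 without library 12, and that of cholesterol and fatty acid synthesis was 0.29 without library 41, -0.21 without library 40 and -0.19 without library 42. Autophagy (29, 0.00, 4 genes), p53 targets (19, 0.04, 3 genes), cell death (22, -0.01, 3 genes) and Notch (26, 0.07, 7 genes) were alike in this. So were cancer-testis antigens (9, -0.03, 3 genes), HOX clusters (19, 0.09, 2 genes) and imprinted genes (13, -0.23, 3 genes). Of 16 clustered protocadherins, *PCDHB13* was called lower at an adjusted *P* of 0.0465, which leaving out any 1 of the 6 libraries raised to between 0.0507 and 0.164.

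The neuroendocrine identity genes showed no call, with values mostly above 0. Of 24 neuroendocrine transcription factors tested, 19 had a log2 fold change above 0, beside 5861 of all 13134 genes. By limma 0 of them were called (7 at an unadjusted *P* below 0.05) and the median was 0.31, beside -0.03 for all genes. *INSM1*, a zinc finger factor of neuroendocrine cells, had levels of 6.71, 7.06 and 6.97 in intact and 7.23, 7.28 and 7.16 in KO cells. The groups did not overlap, but the 95% interval of the log2 fold change of 0.31 ran from -0.22 to 0.84 (adjusted *P* = 0.506). *SOX4*, a factor of neural progenitors, had 6.31, 6.63 and 6.54 against 7.51, 7.48 and 7.45, a log2 fold change of 0.98 (adjusted *P* = 0.00438) that missed the size limit narrowly. *FOXA2*, a pioneer factor of the endoderm, had 4.73, 5.02 and 4.72 against 5.46, 5.72 and 5.40 (log2 fold change 0.70, adjusted *P* = 0.0322). In TAS1440 the level of *INSM1* was 1.95, 2.16 and 2.26 in intact and 4.94, 3.86 and 5.15 in KO cells, and the KO effect was larger there by 2.22 (adjusted *P* = 0.0034). Of 41 granule and peptide genes the median was 0.00 and 2 were called lower, beside 1.01% of all genes. *CALCB*, a calcitonin gene-related peptide, had 4.24, 4.71 and 4.94 against 2.45, 3.73 and 2.80 (log2 fold change -1.63, adjusted *P* = 0.0209, and 0.0727, 0.0657, 0.0864 and 0.0832 without libraries 11, 12, 40 and 42). *NPY*, neuropeptide Y, had 1.69, 2.26 and 0.90 against 0, 0 and 0 (log2 fold change -1.62, adjusted *P* = 0.0325, and 0.0981, 0.119, 0.0886 and 0.0954 without libraries 10, 11, 40 and 42). With TAS1440, *NPY* was at 5.65, 6.24 and 5.41 in intact cells and again listed at 0 in all KO libraries. *KCNA1*, a potassium channel, was the 1 called of 24 ion channel genes, beside 0.457% of all genes called higher. It was at 1.29, 1.76 and 2.10 against 2.61, 3.35 and 2.72 (log2 fold change 1.17, adjusted *P* = 0.00473, with the size under 1 at 0.96 without library 10 and 0.95 without library 41).

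Among the 20 largest rises were the following genes. *CRABP1*, which binds retinoic acid in the cytosol, had levels of 3.72, 3.35 and 3.84 in intact and 5.90, 6.10 and 6.22 in KO cells (log2 fold change 2.44, SE 0.32, adjusted *P* = 0.000744). *EDIL3*, a secreted integrin ligand, had 4.07, 3.33 and 4.15 against 6.35, 5.75 and 6.36 (log2 fold change 2.31, adjusted *P* = 0.00054). Every KO library was above every intact library at both. *FRZB*, a secreted WNT antagonist, had 4.39, 4.13 and 4.85 against 6.70, 5.82 and 6.81 (log2 fold change 1.99, adjusted *P* = 0.00516). *COX7B2*, related to a cytochrome c oxidase subunit, had the largest called rise, 3.04, 2.48 and 1.62 against 5.23, 4.16 and 5.46 (log2 fold change 2.57, adjusted *P* = 0.00258). It was not called with limma fitted to the 2 compared groups alone (adjusted *P* = 0.063). *MAF*, a bZIP transcription factor (log2 fold change 1.56), the serine protease gene *PRSS36* (1.51), the heparan sulfate sulfotransferase gene *HS3ST6* (1.48), *CNFN* (1.35) and the ganglioside synthesis gene *ST8SIA5* (1.34) also rose, with adjusted *P* from 0.000504 to 0.00314. The rises of *CRABP1*, *EDIL3* and *FRZB* were not seen in TAS1440. There *CRABP1* had 2.82, 3.21 and 2.70 against 2.68, 2.71 and 3.02, and the KO effects differed by -2.55 (*CRABP1*, adjusted *P* = 0.0061), -2.63 (*EDIL3*, 0.0032) and -3.19 (*FRZB*, 0.0029). Because these genes were picked by their DMSO rise, which enters the difference, its values are a description.

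Histone genes and small non-coding RNA genes had the most members called higher of the groups examined. Of the 15 replication-dependent histone genes of the list, 15 had a log2 fold change above 0, 4 were called higher (0.457% of all genes) and the median was 0.79. Of the 4, *HIST1H2AC* (log2 fold change 1.00) lost its call on size without library 10, 11, 40 or 41, at 0.84, 0.99, 0.98 and 0.92. *HIST1H2BJ* (1.16) lost its call without library 10, 11, 12, 40 or 42, with adjusted *P* of 0.124, 0.16, 0.0603, 0.153 and 0.134. Of all 48 tested genes whose symbol begins with HIST, counted after these values were seen, 47 were above 0, 8 were called higher and the median was 0.72. The linker histone gene *HIST1H1C* had levels of 4.48, 3.98 and 5.08 against 6.76, 5.91 and 6.36 (log2 fold change 1.83, adjusted *P* = 0.00255). With limma fitted to the 2 compared groups alone it was not called (adjusted *P* = 0.0616). *HIST1H4H* had 3.40, 3.60 and 3.36 against 5.26, 4.47 and 4.69 (log2 fold change 1.35, adjusted *P* = 0.000759), and *HIST1H2BO* a log2 fold change of 1.31 (adjusted *P* = 0.00289). Small non-coding RNA genes were picked by symbol, outside the lists, so their counts are a description. Of 10 tested, 10 were above 0 and 9 were called higher (0.457% of all genes), with a median of 1.27. *RN7SL2*, the RNA of the signal recognition particle, had 5.18, 3.92 and 5.77 against 7.49, 6.74 and 7.75 (log2 fold change 2.37, adjusted *P* = 0.0099, and 0.0548 without KO library 42). The U1 RNA genes among the 9 (*RNU1-1*, *RNU1-2*, *RNU1-27P*, *RNU1-28P*, *RNU1-3* and *RNU1-4*) are near-identical copies with the same values in the table, so they are not separate measurements. The count of 9 and the median therefore rest largely on 1 measurement. *RN7SL1* lost its call without KO library 40 or 42 (adjusted *P* = 0.0535 and 0.0697), and *RNY1*, a Y RNA, without library 11, 12, 40 or 42 (adjusted *P* = 0.0787, 0.0703, 0.101 and 0.0818). Most replication-dependent histone mRNAs and these small RNAs carry no poly(A) tail, and libraries were made from mRNA, and the level of such RNA moved with the group here. Summed levels of the HIST genes were 9.76 to 10.18 in intact and 10.59 to 10.87 in KO cells, and those of the small RNA genes 5.25 to 6.98 and 7.89 to 8.88. The part of library preparation in these rises was not tested. In TAS1440, 5 HIST genes were called higher (background 1.48%) and 1 lower, and their median was 0.48. Of the 10 small RNA genes 1 was called higher there.

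Chromosome 18 stood above the other chromosomes by a small shift shared by most of its genes. Of 187 genes tested on it, 151 (80.7%) had a log2 fold change above 0, beside 5861 of all 13134, and the median was 0.27. The median was 0.31, 0.28 and 0.27 for KO libraries 40, 41 and 42 taken singly, and 0.27 for KO against intact in TAS1440, which shares no library, but -0.24 in H82. The next chromosome was 21 with 0.16 (-0.16 in TAS1440), and the lowest was 13 with -0.13. Among 284 windows of 10 Mb with at least 10 genes tested, the 6 with the highest median were all on chromosome 18. The shift is below the size limit of a call, and 4 genes of the chromosome were called, beside 1.47% of all genes: *ST8SIA5* higher, and *ADCYAP1*, *ST8SIA3* and *DSC2* lower. *ADCYAP1*, the neuropeptide PACAP, had levels of 5.36, 5.46 and 5.50 against 3.17, 4.03 and 3.65 (log2 fold change -1.82, adjusted *P* = 0.00297). *DSC2*, a desmosomal cadherin, had 1.42, 1.50 and 1.71 against 0, 0 and 0 (log2 fold change -1.54, adjusted *P* = 0.00861). *ST8SIA3*, a sialyltransferase gene, had a log2 fold change of -1.08 (adjusted *P* = 0.0184), with adjusted *P* of 0.0612, 0.0754, 0.0647 and 0.0694 without libraries 10, 11, 40 and 42. *SYT4*, a synaptotagmin, had 9.67, 10.08 and 10.35 against 11.11, 10.99 and 10.98, a log2 fold change of 0.99 (adjusted *P* = 0.00505) at the edge of the size limit. At the end of the long arm (76.5 to 78.1 Mb, GRCh37, a stretch chosen after the values were seen), 9 of 10 genes tested were above 0 with a median of 0.65. *CTDP1*, a phosphatase of RNA polymerase II, had 4.84, 4.80 and 4.74 against 5.80, 5.58 and 5.98 (log2 fold change 1.00, adjusted *P* = 0.000498, just under the size limit). DNA copy number was not measured here, and its part in the shift was not tested.

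**Figure D5:**
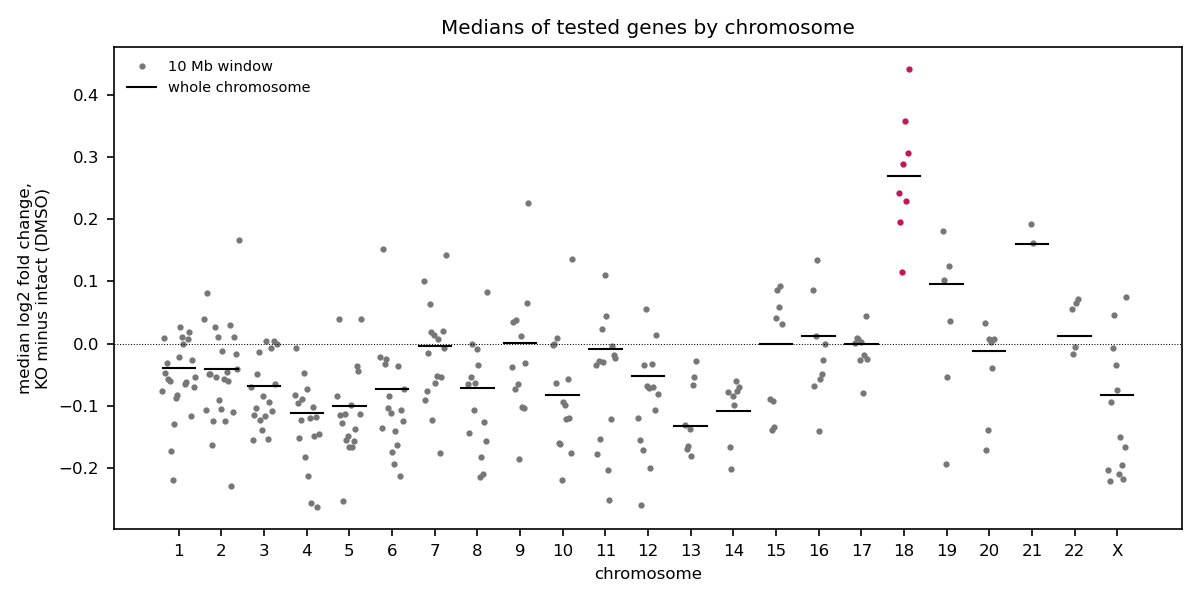
Median log2 fold change (KO minus intact in DMSO) of tested genes, per whole chromosome (black lines) and per 10 Mb window with at least 10 genes tested (points, placed in order along each chromosome). The windows of chromosome 18 (magenta) lie above 0.1, around a chromosome median of 0.27, while no other chromosome has a median above 0.16.

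A shorter stretch on chromosome 16 (29.9 to 30.3 Mb) was chosen after the values were seen, so its counts are a description. It had 17 of 19 genes above 0, beside 5861 of all 13134, and a median of 0.56. In it 3 genes were called higher, beside 0.457% of all genes. *YPEL3* had levels of 4.61, 4.73 and 4.64 against 5.69, 5.73 and 5.78 (log2 fold change 1.07, adjusted *P* = 0.00231). *CORO1A*, an actin-binding protein, had 4.14, 3.70 and 3.77 against 5.07, 4.54 and 5.33 (log2 fold change 1.11, adjusted *P* = 0.00258, and 0.93 in size without KO library 42). Its adjusted *P* was 0.0852 with limma fitted to the 2 compared groups alone. *TMEM219* had a log2 fold change of 1.02 (adjusted *P* = 0.00258), which was 0.91 without library 10 and 0.91 without library 41. The median of the stretch was 0.31 in TAS1440 and 0.46 in H82.

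Both the falls and the rises in DMSO were set beside the same KO in TAS1440, in libraries that are not shared. In TAS1440, 858 genes were called (6.53%). Of the 133 genes lower in DMSO, 65 (48.9%) were also called lower in TAS1440, beside 5.06% of all genes tested, 0 were called higher, and 120 had the same sign. These 65 made up 9.79% of the 664 genes lower in TAS1440. Of the 60 genes higher in DMSO, 8 (13.3%) were called higher in TAS1440, beside 1.48% of all genes, 3 were called lower, and 46 had the same sign. They made up 4.12% of the 194 higher there. The split of 194 higher and 664 lower moved with the scaling, to 298 and 504 with libraries centred on their medians, a change of scale that moved the TAS1440 median of all genes from -0.07 to 0.06, and to 290 and 545 with quantile normalization. The difference between the KO effects was itself called for 33 of the lower and 17 of the higher genes, beside 4.23% of all genes (121 higher and 435 lower, or 176 and 332 with centred libraries). These genes were selected by their DMSO difference, which this contrast subtracts. A raised share is therefore partly built in, and both counts are a description. In H82, where 14.4% of the genes tested were called (923 higher and 1073 lower, or 996 and 729 with quantile normalization), the shares were nearer to the background for the lower genes. Of these, 113 were tested there, with 10 (8.85%) called lower, beside 7.72% of all genes, and 12 (10.6%) called higher, beside 6.64%. Of the higher genes 48 were tested, with 12 (25.0%) called higher, beside 6.64% of all genes, and 4 lower. Several genes lost in COR-L88 KO cells were not called in H82. *JAM3* had levels of 5.27, 5.56 and 5.50 in intact and 5.71, 5.71 and 5.85 in KO H82 cells, and *ETFB* 7.80, 8.51 and 8.14 against 8.09, 8.45 and 8.52. *SLFN13* was low in both H82 groups, at 0.92 or less in intact and 1.19 or less in KO cells.

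In all 3 comparisons 9 genes were called in the same direction. Of the 65 genes lower in both COR-L88 comparisons, 5 were also called lower in H82, where 7.72% of all genes tested were. That share is near the background, so the lower genes are not read as a shared response. Of the 8 genes higher in both, 4 were called higher in H82, beside 6.64% of all genes tested. Lower were *S100A10*, *DSC2*, *SDSL*, *EFEMP1* and *HSPD1*, and higher were *ZNRF2P1*, *RN7SL2*, *JUND* and *YPEL3*. *HSPD1*, the mitochondrial chaperonin, had DMSO levels of 8.21, 7.77 and 7.68 against 6.95, 6.50 and 6.94 (log2 fold change -1.09, adjusted *P* = 0.0037), with log2 fold changes of -1.37 in TAS1440 and -2.12 in H82. *JUND*, an AP-1 factor, had 6.14, 5.95 and 5.63 against 7.12, 6.90 and 6.91 (log2 fold change 1.07, adjusted *P* = 0.00927), with 1.15 in TAS1440 and 1.54 in H82. The groups were apart at both, but both lay close to the size limit in DMSO: *HSPD1* was at -0.93 and -0.94 without libraries 10 and 41, and *JUND* at 0.94 without library 12. In DMSO *ZNRF2P1* was not called without library 10, 11, 12, 40 or 42 (adjusted *P* = 0.092, 0.0674, 0.0878, 0.0928 and 0.0998). *SDSL* was not called without library 10, 11, 40 or 42 (adjusted *P* = 0.0832, 0.123, 0.0886 and 0.129), *EFEMP1* was at -0.97 without library 10, and *RN7SL2* is given above. *DSC2* fell by 3.69 in TAS1440 and by 2.80 in H82, and *S100A10* by 2.65 and 2.28.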

How the data were processed

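The authors trimmed stranded mRNA reads (paired-end, NovaSeq) with Cutadapt, aligned them with STAR to hg19, counted with RSEM and scaled with edgeR's TMM. The deposited human table holds log2(RPKM + 1) values, 20516 genes in 60 libraries. Tool versions are not given in the sources used here, and no read counts are in the table, so counting error is unknown. The study fitted voom on counts. Here limma 3.58.1 (R 4.3.3) with a variance trend was fitted to the log2 values of all 15 COR-L88 libraries (5 groups of 3) and, for H82, of 21 libraries (7 groups), two-sided. Both fits hold groups outside the comparisons. These were COR-L88 with TAS1440 and a gamma-secretase inhibitor, and the parental, *REST* KO and doxycycline groups of H82. In simulated data of this design with normal errors, 92% of genes changed by 1.5 on the log2 scale and 98% of those changed by 2 were recovered. Changed genes were drawn only from those with a mean level of at least 2, so the shares do not cover genes near 0. The text names list members (called ones first), the 20 largest changes each way among called genes with apart groups and a higher mean of at least 2, genes within 1 Mb of *STING1*, called genes of the highest and lowest windows, and genes called in all 3 comparisons. The members and lists were chosen with earlier results of these data known. Alternatives were a pseudocount of 0.1, no filter, quantile and median scaling, no trend, the compared groups alone and leaving out each library. Gene positions are GRCh37. Authors' comparison columns were not present, the mitochondrial-encoded list had 0 genes in the table, and mouse samples were not used here. Some genes are not reported here.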

Additional observations from a re-analysis of the deposited data

Results flagged for a closer look

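The following genes were set apart because the KO effect differed between TAS1440 and DMSO by a limma interaction (adjusted *P* below 0.05 and a size of at least 1), which was called for 556 of 13134 genes (4.23%). Values are the KO effect in TAS1440 minus the KO effect in DMSO, on the log2 scale. The genes were first selected by their DMSO difference, which enters these values, so that values opposite in sign to it are partly built in. Among genes lower in DMSO, the difference was 2.92 for *RPL22*, 2.87 for *ETV4*, 2.83 for *NEDD9*, 2.54 for *RGCC*, 1.96 for both *ERCC6L* and *SPTSSB*, 1.58 for *ETFB* and 1.07 for *CEP41*. For *DSC2* it was -2.14. *DSC2* was listed at 0 in all 6 KO libraries and *ERCC6L* at 0.18 or less, so that their values restate the difference between intact cells in TAS1440 and DMSO. *RPL22* was at 0 in the KO libraries in DMSO. Its intact levels were 5.50 to 5.78 in DMSO and 2.85 to 4.84 in TAS1440, so its value partly restates that difference. The remainder rests on its low KO levels in TAS1440, which are uncertain as said above. Among genes higher in DMSO, the difference was -3.19 for *FRZB*, -2.63 for *EDIL3*, -2.55 for *CRABP1*, -2.31 for *BCAS4*, -1.68 for *HIST1H1C*, -1.50 for *STMN2*, -1.31 for *ST8SIA5* and -1.18 for *MAF*. The rise of *BCAS4* in DMSO was not called without intact library 10 or 11 or KO library 41 or 42 (adjusted *P* of 0.0645, 0.0973, 0.0509 and 0.0791). In intact cells *NEDD9* levels were 4.20 to 4.97 in DMSO and 9.81 to 10.24 in TAS1440.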

How the results depend on the processing

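Of the 193 genes called in DMSO, 72 were called in the same direction under all 12 alternatives, and no named gene reversed. Of the 78 called genes named by the rules, 38 were called under all, and 44 under all but the fit to the 2 compared groups alone. In that fit 33 of the 78 were not called, among them *COX7B2*, *HIST1H1C*, *SMAD6*, *WNT11*, *CORO1A* and *RGCC*. The count of called genes was 372 with a pseudocount of 0.1 and 113 with the compared groups alone, and between 119 (without KO library 42) and 267 (without KO library 41) when 1 library was left out. The count of genes whose KO effect differed between TAS1440 and DMSO was between 335 (without KO TAS1440 library 43) and 909 (without KO TAS1440 library 44), with 364 without intact DMSO library 11. The causes of these moves were not tested. The total counts for TAS1440 and H82 stayed within 1.5 times under all alternatives, but the genes higher in TAS1440 went from 194 to 345 with a pseudocount of 0.1 and to 298 with libraries centred on their medians. Of 56 medians of lists and chromosomes, 33 kept 1 sign under all alternatives, among them chromosome 18 (0.19 to 0.31), the histone list (0.64 to 1.03), neuroendocrine factors (0.26 to 0.35) and class I genes (-0.32 to -0.08), while the STING pathway list (-0.06 to 0.08) and interferon-stimulated genes (-0.06 to 0.03) did not. No paired analysis was possible because the groups compared share no library numbers. Genes listed at 0 have no counts behind them here, so how low they could be is unknown.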
